A study of Mus musculus with 24 samples.

Results

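The distal and the proximal end of the maxilla were compared in control mouse embryos at embryonic day 12.5. The comparison holds 6 arrays, 3 of each end, chosen by their labels out of the 24 arrays of the series. The other 18 arrays carry the control mandible and both jaws of knockout embryos, each jaw also divided into its ends. The strain is given as C57B6, and the control embryos were littermates of the knockouts from matings of a Wnt1cre;Tgfbr2fl/+ parent with a Tgfbr2fl/fl parent. The alleles that the controls carried are not stated in the labels. In the knockouts the Wnt1 promoter drives Cre, so that the floxed Tgfbr2 gene is deleted in neural crest cells and their descendants and not in the other cells of the jaw. Mutant embryos were recognised by their malformations, per the series text.

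The maxilla forms the upper jaw, cheek and secondary palate, and most of its mesenchyme comes from the neural crest, covered by an epithelium that sends Wnt, BMP, FGF and Hedgehog signals to it. In the growing palate, Shox2, Msx1 and Bmp4 are known from the anterior shelf and Tbx22, Meox2, Barx1 and Mn1 from the posterior shelf. The proximal end of the maxilla lies near the eye, the jaw joint and the trigeminal nerve, and the distal end lies towards the snout.

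Values are log2 signals computed by robust multi-array averaging (RMA), in which a difference of 1 is a 2-fold difference. Testing was limited to the 14879 genes, 1 probe set each, whose signal exceeded the 30th percentile in 3 or more of the 24 arrays. That percentile was 5.86 to 5.89 in the control maxilla, and a value at or below it is close to background. Array medians lay between 7.31 and 7.38. Differences are distal minus proximal on the log2 scale, with the standard error (SE) of a limma fit that shares its estimate of the spread over all groups. An adjusted p (Benjamini-Hochberg over all genes tested) under 0.05 was called. Nothing in the labels says whether replicate arrays come from different embryos, and the p-values measure only the spread between arrays. The tissue is bulk, and fewer cells of a type cannot be told apart from less RNA per cell.

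The labels were checked against genes of known place before the ends were compared. Hand2, a transcription factor of the mandible, lay between 5.06 and 6.64 in the 6 control maxilla arrays and between 11.86 and 13.59 in the 6 control mandible arrays. Pou4f1, which marks sensory neurons of the trigeminal ganglion, was at or below the 30th percentile in 6 of 6 control maxilla arrays. Both arrays of number 2 carried the Y-linked Eif2s3y (10.4 distal and 10.2 proximal) and low Xist (6.42 and 6.19). The arrays of numbers 1 and 3 had Xist at 13.8 to 14.0 and no Y-linked signal.

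The arrays numbered 1 went against the arrays numbered 2 and 3. Within each number the distal array was compared with the proximal array, gene by gene. Across the 14879 genes these differences correlated at r = 0.77 between numbers 2 and 3, at -0.77 between numbers 1 and 2 and at -0.68 between numbers 1 and 3. Genes are not independent replicates, and these correlations are a description. The differences of number 1 were wider than those of the others, with an SD of 0.381 against 0.300 in number 2 and 0.336 in number 3. A 2-fold difference was seen in 424 genes in number 1, in 255 in number 2 and in 299 in number 3.

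Other arrays of the series, none of them from the control maxilla, show the same split. Which genes are called between their ends still depends on a spread shared with the control maxilla arrays, number 1 included. Between the ends of the knockout maxilla 432 genes were called higher distally (2.9% of those tested) and 485 lower (3.26%). Of these 917 genes, 76.1% had the same direction in control number 2, 77.5% in number 3 and 32.3% in number 1. Between the ends of the control mandible 165 genes were called higher distally (1.11%) and 348 lower (2.34%). Of these 513 genes, 79.5% had the same direction in number 2 of the control maxilla, 76.6% in number 3 and 28.1% in number 1. Over all genes tested, 66.5% had the direction of the knockout maxilla in number 2, 64.3% in number 3 and 39.6% in number 1. For the direction of the control mandible these shares were 66.0%, 65.3% and 43.4%. The end labels of number 1 were kept as deposited. Calls are given with all 3 numbers and with numbers 2 and 3 alone, and differences of single genes are those of numbers 2 and 3 unless all 3 numbers are named. Number 1 was left out with its values known, and the p-values of numbers 2 and 3 make no allowance for that choice.

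**Figure D1:**
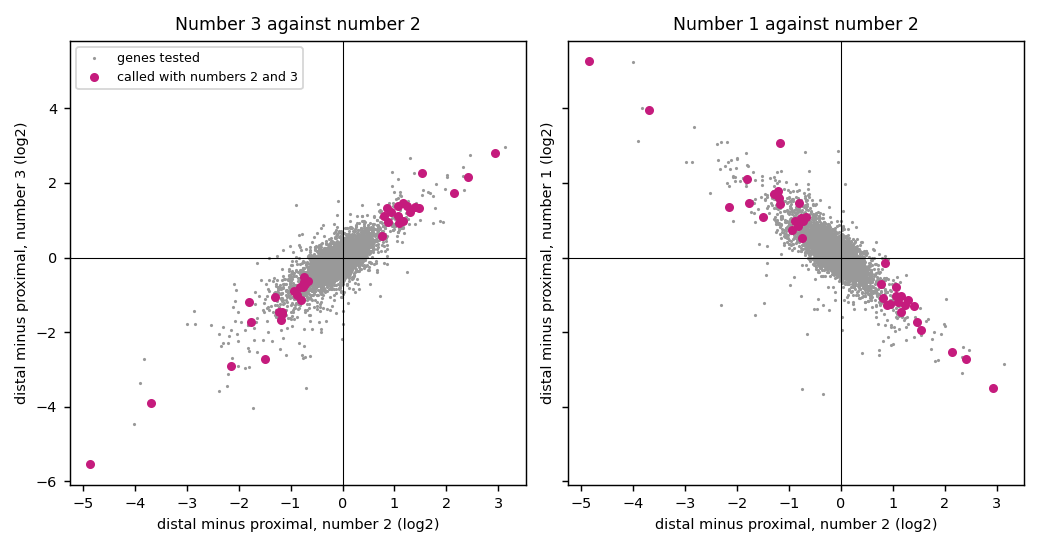
Distal minus proximal difference of each tested gene (log2) in number 3 (left) and number 1 (right) against number 2, with the 38 genes called from numbers 2 and 3 in magenta. The cloud rises on the left (r = 0.77) and falls on the right (r = -0.77), and all 38 called genes lie on the opposite side of zero in number 1.

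With all 3 numbers, 0 of 14879 genes (0%) were called by limma, and 103 had an unadjusted p under 0.05. The 5 genes of smallest p were Frzb, Wfdc17, Gm31513, Bmp2 and Dhh, each with an adjusted p of 1. Frzb, a secreted Wnt antagonist, had 9.78, 10.94 and 10.61 in distal arrays 1, 2 and 3 and 11.18, 11.16 and 11.45 in the proximal arrays, so its groups did not overlap. Its difference was -0.82 (unadjusted p = 0.00362 by limma). Bmp2, a ligand of the BMP pathway, had a difference of 0.68 (unadjusted p = 0.00529 by limma). Dhh, the Hedgehog ligand of Schwann cells and gonads, lay between 6.30 and 6.36 distally and between 6.48 and 6.80 proximally.

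With numbers 2 and 3 alone, 18 genes rose distally (0.121% of those tested) and 20 fell (0.134%), and 1117 had an unadjusted p under 0.05. Among the called genes the largest falls were those of Vtn, Cemip and Cyp1b1 and the largest rises those of Nts, Gm9866 and Gabrb1. The 18 rises lay between 0.67 and 2.86 with a median of 1.24, and the 20 falls between -5.20 and -0.64 with a median of -1.24. The median difference over all genes tested was -0.03. With all 3 numbers none of the 38 was called, and their differences lay between 0.19 and 0.74 (Nts) for the rises and between -1.71 (Vtn) and 0.13 (Shisa6) for the falls. In number 1 all 38 genes had the opposite sign, as had 68.2% of all genes tested. Only 8 of the 38 were called in each of the 4 fits that leave out 1 more of the arrays, 3 of them lower (Vtn, Cemip and 9130410C08Rik) and 5 higher (Gm9866, Gabrb1, Abcg5, Apcdd1 and Tmem132c), and 20 were called in none of these fits.

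The promoters of 4 called genes are shown. Sp5 and Nkd2, which are known to respond to Wnt signals, stand for the rises of that pathway, though both lost their call in 3 of the 4 fits that leave out 1 more array. Vtn and Cemip had the largest falls among the called genes and kept their call in all 4. Each sequence is the 250 bases before the gene's start in RefSeq (build GRCm38.p6), read 5′ to 3′ on the gene's strand. Capitals mark matches on either strand to CTTTG followed by AA, AT, TA or TT, a core that TCF/LEF factors of the Wnt pathway are known to bind.
Sp5, chr2:70474673-70474922, plus strand: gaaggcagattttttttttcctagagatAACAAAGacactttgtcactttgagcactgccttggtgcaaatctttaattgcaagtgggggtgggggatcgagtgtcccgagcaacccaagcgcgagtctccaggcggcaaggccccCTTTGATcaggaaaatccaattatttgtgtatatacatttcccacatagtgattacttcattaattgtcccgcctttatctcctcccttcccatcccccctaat
Nkd2, chr13:73847632-73847881, minus strand: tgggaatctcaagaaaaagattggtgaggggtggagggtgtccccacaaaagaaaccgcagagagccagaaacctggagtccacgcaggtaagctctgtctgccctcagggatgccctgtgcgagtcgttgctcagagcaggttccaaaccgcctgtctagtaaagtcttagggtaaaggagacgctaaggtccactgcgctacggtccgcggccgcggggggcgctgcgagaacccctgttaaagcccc
Vtn, chr11:78498870-78499119, plus strand: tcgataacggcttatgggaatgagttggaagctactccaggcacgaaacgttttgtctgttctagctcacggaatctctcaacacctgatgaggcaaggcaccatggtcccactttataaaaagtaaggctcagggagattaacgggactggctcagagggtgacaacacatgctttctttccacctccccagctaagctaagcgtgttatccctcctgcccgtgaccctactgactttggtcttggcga
Cemip, chr7:84086506-84086755, minus strand: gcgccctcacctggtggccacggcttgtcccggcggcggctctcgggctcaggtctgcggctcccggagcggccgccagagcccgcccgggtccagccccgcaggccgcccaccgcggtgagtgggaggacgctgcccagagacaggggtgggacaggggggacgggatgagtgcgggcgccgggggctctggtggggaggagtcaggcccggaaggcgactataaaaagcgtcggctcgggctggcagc
The Sp5 window held 2 matches, which begin 222 and 104 bases before the start, and the windows of Nkd2, Vtn and Cemip held 0. A match was present in 14.8% of 32851 such windows of all genes, and in 1 or more windows of 16.8% of 27025 genes. Of the called genes 29 had a window and 4 of them (13.8%) held a match, among them 2 of 15 higher distally. Counted by gene, these letters were about as frequent as over all genes.

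Vtn, which encodes the adhesive plasma and matrix glycoprotein vitronectin, had the largest difference among the called genes. It was at 5.46 and 5.14 in distal arrays 2 and 3 and at 10.31 and 10.68 in proximal arrays 2 and 3. In number 1 the distal array had 10.88 and the proximal array 5.60. The low arrays lie below the 30th percentile, so Vtn was near background in 1 end of each number and among the higher genes in the other. It fell by 5.20 (SE 0.36, adjusted p = 1.37e-06 by limma) with numbers 2 and 3, against -1.71 (adjusted p = 1) with all 3 numbers. A second Vtn probe set gave -4.49.

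Cemip, which takes part in breaking down hyaluronan, showed the same arrangement. It was at 5.75 and 5.71 in distal arrays 2 and 3, at 9.44 and 9.61 in proximal arrays 2 and 3, and at 9.89 distally and 5.93 proximally in number 1. The difference of numbers 2 and 3 was -3.80 (SE 0.35, adjusted p = 5.41e-05 by limma). The other Cemip probe sets differed by -0.17 and 0.07, so only the brightest shows the fall, and the mean of its probe sets gives -1.30.

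Cyp1b1 and Pitx1 fell in a graded way. Cyp1b1, a cytochrome P450 whose loss causes congenital glaucoma in humans, was at 7.39 and 6.69 in distal arrays 2 and 3 and at 9.53 and 9.59 in the proximal ones, a fall by 2.52 (SE 0.34, adjusted p = 0.00197 by limma). Pitx1, a homeobox gene of the first arch and hindlimb, was at 9.03 and 7.76 distally and at 10.52 and 10.50 proximally, a fall by 2.11 (SE 0.42, adjusted p = 0.0468 by limma). For both, distal 3 was lower than distal 2 while the proximal arrays were level. In number 1, Pitx1 had 10.45 distally and 9.37 proximally, and Cyp1b1 had 9.62 and 8.26.

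**Figure D2:**
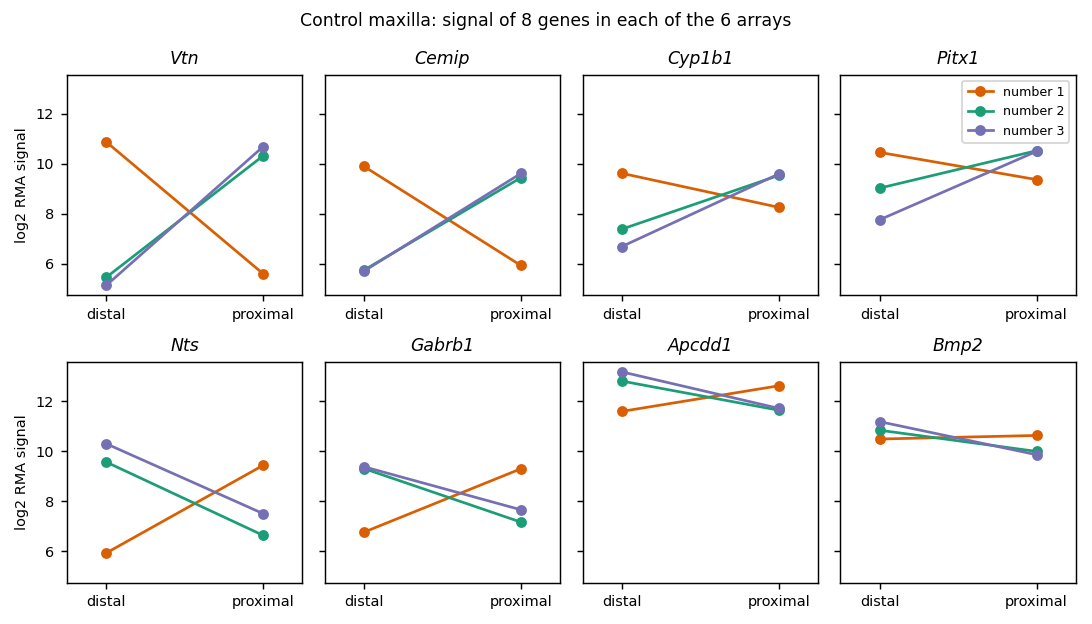
Log2 RMA signal of 8 genes in the distal and proximal array of each number, joined by a line per number. Vtn, Cemip, Cyp1b1 and Pitx1 rise from the distal to the proximal end in numbers 2 and 3 and fall in number 1, and the other 4 genes do the reverse, Bmp2 with a difference of only -0.14 in number 1.

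The other named falls included receptors and membrane proteins. Shisa2, whose frog relative holds back Wnt and FGF receptors inside the cell, was at 9.08 and 9.47 distally and 10.89 and 10.67 proximally (difference -1.51). Thbd, the thrombin receptor thrombomodulin of endothelium, differed by -1.35, and Calcrl, a receptor for adrenomedullin and related peptides on vessels, by -1.17. Synpo2, an actin-binding protein of muscle, differed by -1.31, and Shisa6, an accessory protein of AMPA receptors, by -1.34. Cmbl, a hydrolase, differed by -1.44. The unnamed transcripts 9130410C08Rik and 1110032F04Rik differed by -1.74 and -0.97. Adjusted p lay between 0.000241 (9130410C08Rik) and 0.0468 (Thbd) in limma's fit. For Shisa6 all 3 numbers together gave the other sign (0.13), and distal 1 (8.60) lay above every proximal array. The mean of all probe sets of a gene gave smaller differences for Calcrl (-0.72), Synpo2 (-0.66), Shisa6 (-0.71) and 1110032F04Rik (-0.53), none of which was then called.

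Secreted and membrane proteins of the Wnt pathway stood among the rises. Apcdd1, a membrane protein that holds back Wnt signals, was at 12.80 and 13.16 in distal arrays 2 and 3, at 11.63 and 11.71 in the proximal ones, and at 11.59 distally and 12.61 proximally in number 1. It rose by 1.31 (SE 0.15, adjusted p = 0.000418 by limma), and its other 5 probe sets gave 1.06 to 1.86. Nkd2, which binds Dishevelled and dampens Wnt signals, rose by 1.23 (SE 0.18, adjusted p = 0.00514). Sp5, a transcription factor induced by Wnt signals, rose by 1.31 (SE 0.23, adjusted p = 0.0192). Rspo1, a secreted protein that strengthens Wnt reception, rose by 1.07 (SE 0.19, adjusted p = 0.0223). Of the 31 tested genes of the Wnt list, Sp5 and Rspo1 were called higher and 0 lower, against 0.121% and 0.134% of all genes. Apcdd1 and Nkd2 are not in that list. Of the list 16 were higher distally in both numbers and 11 lower in both, against 26.7% and 42.7% of all genes. The median difference was 0.34 (0.03 with all 3 numbers), but it was 0.04 in number 2 and 0.43 in number 3. The Wnt targets Axin2 (0.69, adjusted p = 0.0913), Notum (0.86, adjusted p = 0.255) and Nkd1 (0.98, adjusted p = 0.438) did not pass limma's test. Neither did the ligand Wnt5a, at 13.18 and 13.54 distally and 12.29 and 12.31 proximally.

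Neurotensin and receptor subunits made up another part of the rises. Nts, which encodes the neuropeptide neurotensin, was at 9.56 and 10.29 in distal arrays 2 and 3, at 6.63 and 7.50 in the proximal ones, and at 5.92 distally and 9.43 proximally in number 1. Its rise was 2.86 (SE 0.42, adjusted p = 0.00388 by limma). Gabrb1 and Gabra4 encode subunits of the GABA-A receptor, an ion channel opened by the transmitter GABA. Gabrb1 was at 9.30 and 9.37 distally and 7.16 and 7.65 proximally, a rise of 1.93 (SE 0.22, adjusted p = 0.000418), or 1.05 with the mean of its probe sets. Gabra4 rose by 1.26 (SE 0.17, adjusted p = 0.00219 by limma). In the RefSeq annotation of GRCm38.p6 these genes lie next to each other on chromosome 5, on opposite strands, with starts 387 bases apart. Reln, the secreted guidance protein reelin, rose by 1.40 (SE 0.20, adjusted p = 0.00328), or 0.72 with the mean of its probe sets.

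Bmp2 differed little between the ends of number 1. It was at 10.83 and 11.18 in distal arrays 2 and 3, at 9.99 and 9.85 in proximal arrays 2 and 3, and at 10.48 distally and 10.62 proximally in number 1. The rise with numbers 2 and 3 was 1.08 (SE 0.21, adjusted p = 0.0449 by limma). That call was lost with the mean of probe sets, with centred medians and with cyclic loess. With the mean of probe sets its own difference stayed at 1.08. Of the 21 tested genes of the BMP list Bmp2 was called higher and 0 lower, against 0.121% and 0.134% of all genes. The list median was 0.08. Bmp4, at 12.55 and 12.56 distally and 11.54 and 11.51 proximally, had a difference of 1.03 (adjusted p = 0.518). The remaining named rises were Gm9866 (2.29), Pof1b (1.90), an actin-binding protein of epithelia, Abcg5 (1.38), a subunit of a sterol transporter, Tmem132c (1.10) and Cyp27a1 (0.96, or 0.45 with the mean of its probe sets), the mitochondrial sterol hydroxylase. Another 12 called genes, not listed here, lay between 0.67 and 1.06 (4 genes) or between -0.94 and -0.64 (8 genes).

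Genes of the posterior palate were lower distally in numbers 2 and 3, although none passed limma's test over all genes. All 4 of the list were lower in both numbers, with a median of -2.14 (-0.82 with all 3 numbers), and 3 were 2-fold lower in both, against 108 of all genes tested (0.726%). Barx1, a homeobox gene of the posterior palate and molar region, was at 9.79 and 7.42 in distal arrays 2 and 3 and at 11.52 and 11.44 in the proximal ones (difference -2.88, adjusted p = 0.12). Tbx22, a T-box gene mutated in human cleft palate, was at 9.62 and 8.73 distally and 11.45 and 11.15 proximally (-2.12, adjusted p = 0.295). Meox2 was at 6.16 and 6.65 distally and 8.68 and 8.46 proximally (-2.17, adjusted p = 0.221), and Mn1 differed by -0.37. In number 1 the list's median was 1.47.

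Of the anterior palate list 5 of 6 genes were tested, and 4 of them were higher distally in both numbers, with a median of 0.41, which was -0.19 with all 3 numbers. Bmp4 alone was 2-fold higher in both, as were 51 of all genes tested (0.343%). Msx1, at 13.34 and 13.48 distally and 12.35 and 12.72 proximally, differed by 0.88, and Shox2 by 0.09. Among the 8 tested frontonasal and distal jaw homeobox genes the median was 0.52 (0.13 with all 3 numbers), and Msx2, the partner of Msx1 in BMP-responsive mesenchyme, was highest at 2.07 (adjusted p = 0.0969), or 1.13 with the mean of its probe sets. Tfap2a, a transcription factor of neural crest and facial ectoderm, differed by 1.33 (adjusted p = 0.191).

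No forkhead or T-box transcription factor passed limma's test. Of 11 tested forkhead genes 10 were lower distally in both numbers, against 42.7% of all genes, with a median of -0.60 (-0.37 with all 3 numbers). Foxc2, needed for skull and vessel development, was at 9.41 and 8.74 distally and 11.22 and 11.24 proximally (-2.15, adjusted p = 0.0745). Foxp2 differed by -1.85, Foxf2 by -1.25 (-0.68 with the mean of its probe sets) and Foxc1 by -1.22, and these 4 were 2-fold lower in both numbers. Foxl2 (-1.73), known from the eyelid and the ovary, was at 10.62 in distal 2 and 8.50 in distal 3 against 11.38 and 11.20 proximally. The T-box list had a median of -1.18 over 8 tested genes (-0.38 with all 3 numbers), but its members split, with 5 lower and 2 higher in both numbers. Tbx15 (-2.41), Tbx20, Tbx22 and Tbx18 (-2.10) were among the lower ones, and Tbx2 (0.93) and Tbx3 (0.85) were the higher ones.

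Of the 14 tested genes of the retinoic acid list 0 were called, and 8 were lower and 5 higher distally in both numbers, against 42.7% and 26.7% of all genes. The list's median was -0.21 (-0.10 with all 3 numbers). Aldh1a2 and Aldh1a3, which make retinoic acid, differed by -1.41 (adjusted p = 0.0832) and -1.69, and the receptor Rarb by -1.34 (adjusted p = 0.0622). Cyp26b1, which breaks retinoic acid down, differed by 1.08 (adjusted p = 0.474).

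**Figure D3:**
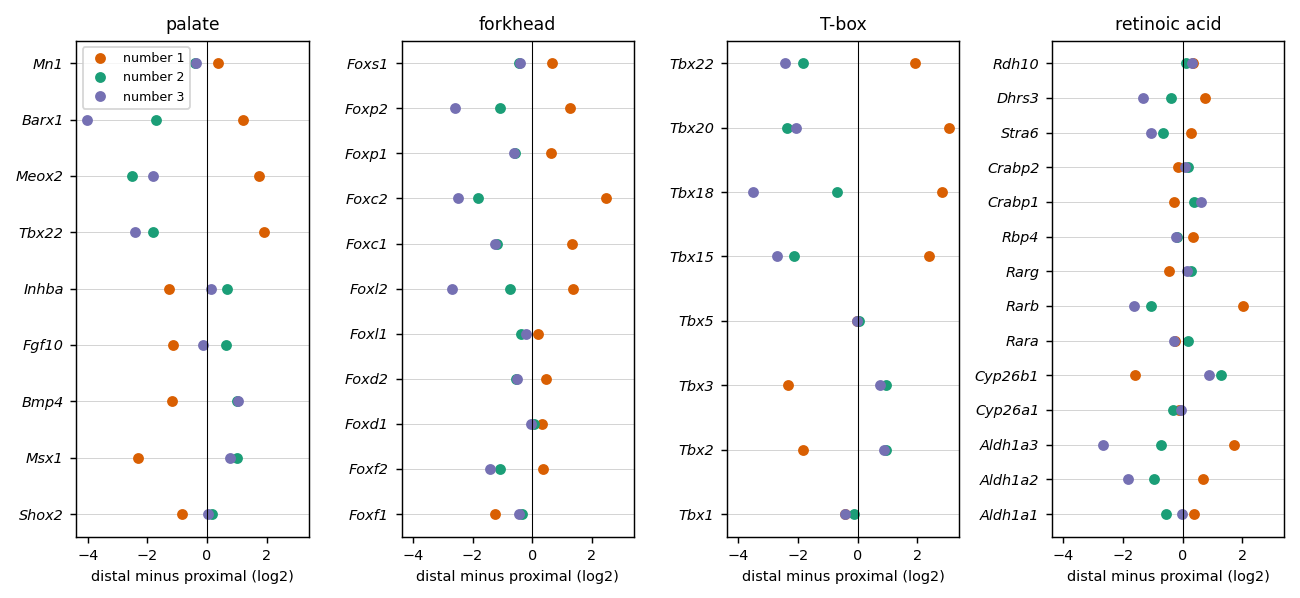
Distal minus proximal difference (log2) of each tested member of the palate, forkhead, T-box and retinoic acid lists, with a point per array number. Numbers 2 and 3 lie together for most genes and number 1 lies across zero from them, as for Tbx22 and Foxc2.

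Fgf8, a ligand of the oral and nasal epithelium, had a difference of 3.13 in number 2, 2.96 in number 3 and -2.87 in number 1. It was at 9.01 and 9.68 in distal arrays 2 and 3 and at 5.87 and 6.72 in the proximal ones (3.05, SE 0.84, adjusted p = 0.191 by limma). Over 22 tested genes of the FGF list 0 were called and the median was 0.21 (0.04 with all 3 numbers). The Hedgehog list had a median of 0.14 over 12 genes (-0.06 with all 3 numbers), with 0 called. Shh was at 9.71 and 10.10 distally and 9.32 and 9.12 proximally (0.69), and in number 1 at 7.62 and 10.19. Among Notch genes Hey2, a target of the pathway, differed by 1.70 (adjusted p = 0.493), and the list's median was -0.07. The TGF-beta list had a median of -0.14 over 21 genes and 0 calls.

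Marker lists of other tissues also had different levels at the ends. In numbers 2 and 3, 14 of 15 macrophage genes were lower distally in both, with a median of -0.84, and their mean level was 7.56 to 7.58 in the distal and 8.16 to 8.32 in the proximal arrays. In number 1 it was 8.21 distally and 7.28 proximally. Of 20 neuronal genes 18 were lower distally in both (median -0.70), of 15 endothelial genes 14 (median -0.40), and of 20 sarcomere genes 15 (median -0.63), against 42.7% of all genes. With all 3 numbers the medians were -0.17 for macrophages, -0.26 for neurons, -0.10 for endothelium and -0.14 for sarcomere genes. The neuronal mean level was 8.80 to 8.98 distally and 9.48 to 9.57 proximally, the endothelial one 9.45 to 9.77 and 10.07 to 10.13, and the sarcomere one 6.03 to 6.07 and 6.70 to 6.81. Smooth muscle and pericyte genes had a median of -0.49, with the pericyte channel subunit Kcnj8 at -2.05 and the pericyte marker Rgs5 at -1.41, beside the falls of Vtn, Thbd and Calcrl. No tested member of these lists was called, while Vtn, Thbd and Calcrl, which are outside the lists, were. The part these cells have in the calls was not tested.

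None of the 21 tested epithelial genes was called. In numbers 2 and 3, 14 were higher distally in both and 4 lower in both, against 26.7% and 42.7% of all genes, and the median was 0.08 in number 2, 0.31 in number 3 and 0.01 with all 3 numbers. Krt5 (1.71), Trp63 (1.39, or 0.81 with the mean of its probe sets), Perp (1.29), Grhl3 (1.22) and Sfn (1.07), all known from stratified epithelium, were 2-fold higher in both. The list's mean level was 10.24 to 10.48 in distal arrays 2 and 3, 9.85 to 9.88 in proximal arrays 2 and 3, and 9.47 distally and 10.23 proximally in number 1. These levels were higher in the same arrays as Pof1b, Bmp2 and Sp5, and their part in those rises was not tested. Cell cycle genes had a median of 0.02 and erythroid genes one of 0.04.

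**Figure D4:**
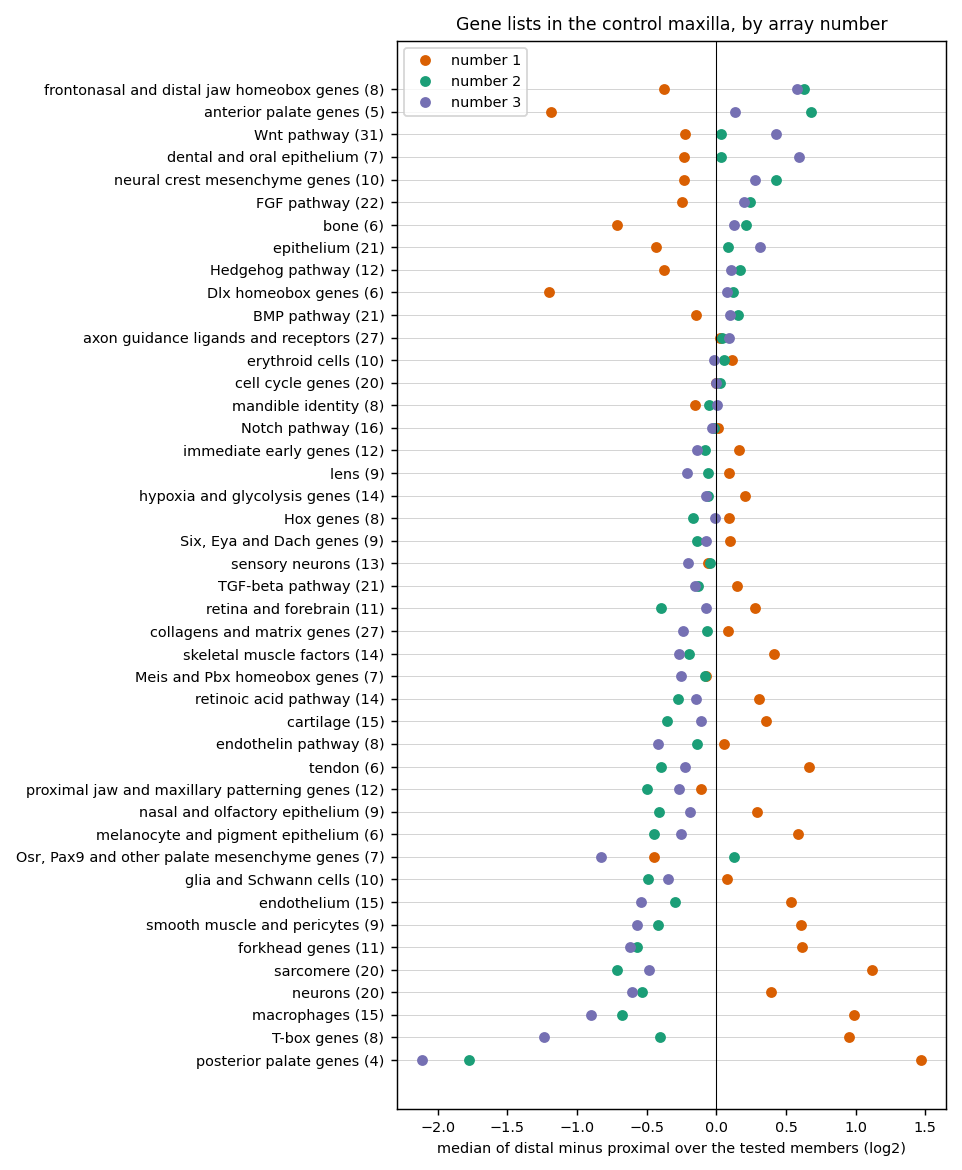
Median distal minus proximal difference (log2) over the tested members of each of 44 gene lists, with a point per array number and the number of tested members in brackets. Numbers 2 and 3 agree in sign for most lists, from -1.78 and -2.11 for the posterior palate genes to 0.63 and 0.58 for the frontonasal genes, and number 1 lies on the other side for most of those away from zero.

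A minority of genes did not turn over in number 1. The sign was the same in all 3 numbers for 2649 genes (17.8% of those tested). Genes whose sign differed between numbers 2 and 3 could not be among them. Against the mean of numbers 2 and 3, 31.8% of all genes tested had the same direction in number 1. Of the 159 genes that were 2-fold in both number 2 and number 3, 154 had the opposite sign in number 1, 137 of them by 2-fold or more. Only Lhx6, Dlx1 and Dlx1as were 2-fold in the same direction in all 3 numbers. Lhx6, a LIM homeobox gene of the oral mesenchyme, was at 7.01, 7.71 and 6.77 in distal arrays 1, 2 and 3 and at 8.54, 9.37 and 9.32 in the proximal arrays, so its groups did not overlap (difference -1.91 with all 3 numbers, unadjusted p = 0.00815 and adjusted p = 1 by limma). The mean of its probe sets gave -1.05. Dlx1, a homeobox gene of the proximal first arch, was at 6.14, 6.78 and 7.02 distally and 7.37, 8.27 and 8.13 proximally (-1.28, adjusted p = 1). Dlx1as, an RNA from the other strand of the Dlx1 locus, was at 4.39, 4.68 and 4.73 distally and at 5.66, 6.99 and 6.60 proximally. Its distal values and proximal 1 lie below the 30th percentile, so its difference in number 1 is between values near background.

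The next genes of this kind, by the smallest of their 3 differences, were AI606473, Gria1 and Fendrr on the lower side and Eml5, E130114P18Rik, Cntnap2, 5031426D15Rik, Arsj and Zfp948 on the higher side. On the higher side the fitted differences were 0.32 to 0.54 with all 3 numbers, and the mean of their probe sets lowered those of Eml5 to 0.04, Cntnap2 to 0.25 and Zfp948 to 0.15. AI606473 was at 6.51 in distal 1 and between 9.31 and 10.17 in the other 5 arrays. Lhx8, a partner of Lhx6 in the oral mesenchyme, had the same outlying array, with 7.53 in distal 1 and between 10.56 and 11.18 in the other 5. Msx1 (11.10 in distal 1 against 12.35 to 13.48) and Shh (7.62 against 9.12 to 10.19) also had their lowest value there.

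The comparison with the knockout maxilla asks whether the ends differ in the same way without Tgfbr2 in the neural crest. Its differences share no arrays with the control maxilla, but its p-values share the estimate of the spread. All 18 genes called higher distally in the controls had a positive difference in the knockout maxilla, with a median of 0.99 against 1.24, where 51.9% of all genes were positive. Of these 18 genes 6 were called there too, against 2.9% of all genes. They were Nts, Pof1b, Nkd2, Tmem132c, Bmp2 and Gm26688, the last named after its values were seen. Of the 20 called lower, 19 had a negative difference there, where 48.1% of all genes were negative. Their median was -0.47 against -1.24, and Cemip was called (3.26% of all genes). Nts was at 9.32, 9.91 and 9.51 in the knockout distal arrays and at 6.43, 6.41 and 6.47 in the proximal ones, a difference of 3.15 (adjusted p = 0.0314 by limma). Vtn was at 5.78, 5.34 and 6.78 distally and 9.30, 10.15 and 9.70 proximally (-3.75, adjusted p = 0.0632). Pitx1 was the exception, with 0.54 (adjusted p = 0.49 by limma). The knockout ends also differed in marker lists of tissues. Of 21 tested epithelial genes 14 were called higher distally there (2.9% of all genes), with a median of 1.71 against 0.19 in the controls. Of 20 neuronal genes 13 were called lower (3.26% of all genes), with a median of -1.73 against -0.70. The part of these tissues in the shared directions was not tested.

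**Figure D5:**
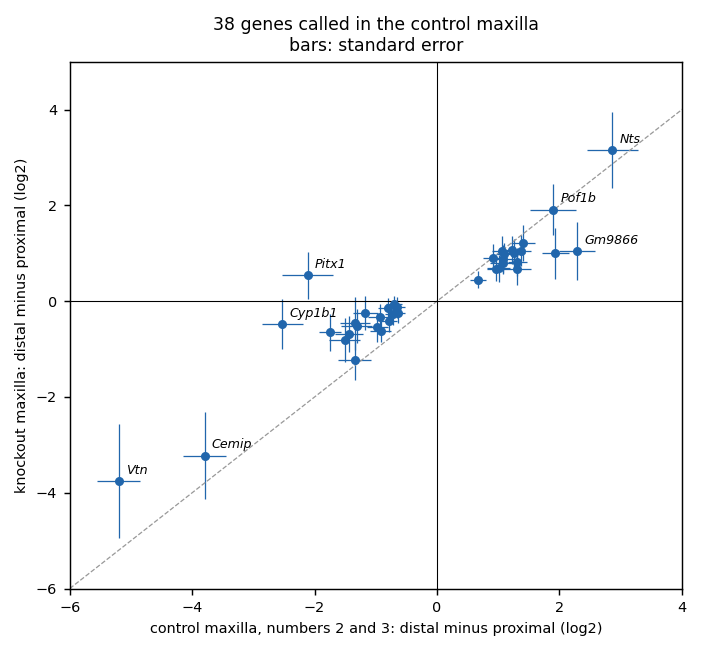
Distal minus proximal difference (log2) of the 38 called genes in the knockout maxilla (3 arrays an end) against that in the control maxilla, numbers 2 and 3 (2 arrays an end), with standard errors as bars and the dashed line marking equal differences. All of the 38 points but Pitx1 (-2.11 against 0.54) share their sign.

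The difference of the end differences between genotypes was called for 6 genes with all 3 numbers (0.0403%) and for 2 with numbers 2 and 3 (0.0134%). Ppp1r1c, a phosphatase inhibitor, was at 5.65 to 5.98 in all control maxilla arrays. In the knockout it was at 5.67 to 5.79 distally and at 12.45, 12.16 and 9.52 proximally. The difference of the end differences was 5.78 (SE 0.72, adjusted p = 0.00294 by limma), and 5.85 with numbers 2 and 3 (adjusted p = 0.0327). Both ends of the control maxilla lay close to the 30th percentile (5.86 to 5.89), so this value restates the knockout proximal signal. Ppp1r1c could pass the filter of 3 arrays through the knockout proximal arrays alone. Pou4f1, Ppp1r17 and Prrxl1 had the same arrangement, with 11.41, 11.29 and 8.50 for Pou4f1 in the knockout proximal arrays. Pou4f1 and Prrxl1 mark sensory neurons. Of the 13 tested sensory neuron genes 7 were called lower distally in the knockout maxilla (3.26% of all genes) and 0 in the control maxilla (0.134%), where Pou4f1 at background could not be called lower. The part of ganglion tissue in the knockout proximal arrays was not tested. Stk32a and Umodl1 were the other 2, with values near background in most arrays.

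Between the control jaws the end difference was called different for 0 genes with all 3 numbers (0%), with 920 at an unadjusted p under 0.05. It was called for 8 with numbers 2 and 3 (0.0538%), each of them among the 38. Vtn was at 4.99 to 5.63 in all 6 control mandible arrays, so its end difference was -4.88 relative to the mandible (SE 0.46, adjusted p = 0.000154 by limma). Cemip lay between 5.42 and 6.90 there, and Gm9866 between 4.55 and 4.75. The mandible values of Vtn and Gm9866 were all below the 30th percentile, which was 5.85 in the array where it was lowest. At that level a fall at either end of the mandible could not show, so for these genes the value restates the maxilla difference. Gabrb1 lay between 6.87 and 7.32 and Gabra4 between 8.36 and 8.52 in the mandible, with no end difference (-0.17 and -0.04). Of the 18 genes called higher distally in the maxilla, 12 had the same sign in the mandible, as had 44.5% of all genes. None of the 18 was called there (1.11% of all genes). Of the 20 called lower, 19 had the same sign, as had 55.5% of all genes. Synpo2 was called (2.34% of all genes), at -1.33 (adjusted p = 0.048 by limma).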

How the data were processed

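Biotin-labelled RNA of each end was hybridised to 1-colour arrays of 45101 probe sets. The authors deposited log2 values from RMA (version not given in the sources used here), as the submitters' processing notes name it, and no further normalisation was made. Of the probe sets 34945 had 1 gene symbol in the platform annotation, and probe sets with several symbols (932), without a symbol (9160) or for controls (64) were not used. Each of 18193 genes was represented by its probe set of highest mean over 24 arrays, and 14879 lay above their array's 30th percentile in 3 or more arrays. Limma 3.58.1 in R 4.3.3 fitted 8 group means to 24 arrays, or to the 22 without number 1 of the control maxilla, with two-sided tests and Benjamini-Hochberg adjustment, called under 0.05. The fit was tested on simulated data. The number of arrays limits the precision. No array copied another (smallest root mean square difference 0.196).

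The comparison, lists and gene rules were chosen with earlier results of these data known. Named were up to 12 called genes each way in which both distal arrays lay on one side of both proximal arrays, the 5 of smallest p with all numbers, 6 each way of equal sign in all 3 numbers, called genes of the differences between jaws and genotypes, and list members. The alternatives tried were other probe set summaries, filters, centring, cyclic loess, priors, array weights, only the groups compared, array number as block, and leaving out arrays. Deviations from the group means of same-numbered arrays correlated at -0.65, -0.14 and -0.27, and with numbers 2 and 3 alone at 0.42. Number 1, which went the opposite way, enters the group means behind the first 3 values, so they do not tell about pairing. With 2 arrays an end both pairs must give the same value, so 0.42 is a single correlation. The labels name no shared embryo and 2 pairs do not settle it, so the main fit has no block.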

Additional observations from a re-analysis of the deposited data

Results flagged for a closer look

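End differences of the control maxilla differed from those of another group by an interaction test (limma, Benjamini-Hochberg) for the genes below. Against the knockout maxilla with all 3 numbers, the difference of the end differences was 5.78 for Ppp1r1c, 4.82 for Pou4f1, 4.76 for Ppp1r17, 3.76 for Prrxl1, -0.69 for Stk32a and -2.14 for Umodl1, with adjusted p from 0.00294 (Ppp1r1c) to 0.0479 (Prrxl1). With numbers 2 and 3 it was 5.85 for Ppp1r1c and -0.77 for Stk32a, each with an adjusted p of 0.0327. The other 4 were not called there, with adjusted p from 0.102 (Pou4f1) to 0.223. Against the control mandible with numbers 2 and 3, the difference was -4.88 for Vtn, -3.14 for Cemip, -1.42 for 9130410C08Rik, 2.36 for Gm9866, 2.10 for Gabrb1, 1.30 for Gabra4, 1.13 for Cyp27a1 and 1.10 for Tmem132c, with adjusted p from 0.000154 (Vtn) to 0.0417 (Gabra4). With all 3 numbers each of these 8 had an adjusted p of 1. Vtn and Gm9866 were near background in every control mandible array, so their values restate the maxilla difference.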

How the results depend on the processing

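The calls depend on the arrays kept. With all 3 numbers 0 genes were called, 34 with array weights and 38 without both arrays of number 1. With numbers 2 and 3 the 38 calls became 25 with the mean of a gene's probe sets, 1369 with array weights, 937 with only the groups compared, 104 without the arrays of knockout mandible 1 (chosen after seeing the data) and 8 to 23 when 1 more array was left out. Fewest remained without distal 3 (8), proximal 2 (9) and proximal 3 (11), and 23 without distal 2. The array number as a fixed replicate block gave 58 and as a random replicate block 120. Whether numbers 2 and 3 pair the ends was not settled: same-numbered arrays correlated at 0.42 and each number's ends share their sex-linked signal, but the labels name no shared embryo. Between control jaws the 0 calls became 394 with array weights, 242 with only the groups compared, 8 without number 1 and 45 without knockout mandible 1. Between genotypes the 6 calls became 2 at the 50th percentile filter, 3 with cyclic loess, 1130 with array weights, 0 with only the groups compared, 14 with the random replicate block, 2 to 3 with 1 array left out, 2 without number 1 and 3 without knockout mandible 1. The cause of these shifts was not tested. Shisa6 changed sign, from 0.13 with all 3 numbers to -1.34 without number 1. Of 27 named called genes, 18 were still called with the mean of probe sets, 22 with centred medians, 25 with cyclic loess and 20 with the fixed block, and 0 reversed. Pitx1 was not called with the mean of probe sets, centred medians, only the groups compared or the fixed block. Bmp2 was not called with the mean of probe sets, centred medians or cyclic loess. Its own difference was the same (1.08) with the mean of probe sets. The mean of probe sets moved the difference of numbers 2 and 3 by over 1.5 times for 20 of 100 named genes, among them Tbx20 (-0.87), Foxl2 (-1.13), Wnt5a (1.67), Tbx3 (0.57) and Shh (0.38). Values near the 30th percentile, as those of Vtn and Cemip in their low arrays, bound the size of a difference from below.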

Other observations

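Outside the lists, further genes with large differences in numbers 2 and 3 were chosen after their values were seen, and none of them passed limma's test. Zic1, a zinc finger transcription factor of dorsal and periocular tissue, was at 7.94 and 8.30 in distal arrays 2 and 3 and at 11.85 and 11.67 in the proximal ones, and at 12.69 distally and 9.58 proximally in number 1 (difference of numbers 2 and 3 -3.64, adjusted p = 0.0556). Its relatives Zic2 (-3.27, adjusted p = 0.0556) and Zic5 (-2.31, adjusted p = 0.324) lay the same way. Arg1, the arginase of the urea cycle and of some macrophages, was at 5.71 and 5.31 distally and 9.72 and 9.76 proximally, and at 10.07 and 4.82 in number 1 (-4.24, adjusted p = 0.0745). Genes known from neutrophils differed too, with S100a9 at -2.98, S100a8 at -2.84, Stfa2l1 at -2.67 and Ngp at -1.56. For these 4, proximal 3 was above proximal 2, as for S100a9 with 9.45 against 8.03.

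On the distal side, the neuropeptide gene Sst was at 9.72 and 10.03 distally and 7.26 and 7.28 proximally (2.61, adjusted p = 0.107), and at 7.16 distally and 9.64 proximally in number 1. The secreted synapse organiser Cbln4 differed by 2.38, the chemokine Cxcl14 by 1.89 and the secreted Wnt antagonist Dkk4 by 1.82. Vgll2, a cofactor of TEAD transcription factors, differed by 2.08.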
